A study of Macrobrachium nipponense with 6 samples.

Results

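Among the microRNA probes of a custom array for the oriental river prawn, Macrobrachium nipponense, 64 carry names that begin PC-5p- or PC-3p-. These are predicted candidates with no species prefix and no known homologue in their name, and they make up 64 of the 2546 miRNA probes. The rule for a member is its name alone and uses no measured value. The array was hybridised with total RNA pooled from gill, hepatopancreas, muscle and hemocytes of prawns held for 24 h in normoxic water (6.5 ± 0.2 mg O2 per L, 3 arrays) or in hypoxic water bubbled with nitrogen (2.0 ± 0.1 mg O2 per L, 3 arrays). Each array had 1 Cy3-labelled sample. Whether samples of a group are different animals is not stated in the labels, and p-values therefore cover only the spread between these samples. In a pool, fewer cells of a type and less RNA per cell cannot be told apart.

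MicroRNAs are short RNAs cut from a hairpin precursor, and the arm they come from is named 5p or 3p. The mature strand is loaded into an Argonaute protein and finds its messenger RNA targets mainly through the seed, bases 2 to 8. Candidates are predicted from small RNA reads that fit such a hairpin, and degradation products of longer RNAs can be predicted the same way, so the name alone does not show that a candidate is made as a miRNA. The array names 29 of the candidates 5p and 35 of them 3p, and the gene or precursor behind each is not annotated in the sources used here.

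The 9 candidates bright enough to be compared between oxygen levels are shown first, since the response rests on them. Target sequences are those given with the array, 5′ to 3′, with the seed in capitals.
PC-3p-189091_4: uCCCGAAAcagagagagcu
PC-5p-2388_431: uGACUGGGgcgguacaucuguc
PC-5p-16770_62: aUACAAACaugacuucuaucuag
PC-5p-14110_76: aAGACGUCaggcugcaauccu
PC-3p-21202_53: gACGUCAGgcugcaauccu
PC-3p-324204_2: uGGGUGAGguguagagcu
PC-5p-1231647_1: gUGAAGGAaggaaggaagg
PC-3p-858005_1: cCGGGAAGgaagaaaggga
PC-3p-480983_1: uCAAGAAAaagaaaaagaagaagac

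The last 3 of these consist almost only of A and G, at 94.7%, 89.5% and 88.0% purines, against a median of 54.5% over the 64 candidates. All 64 candidates have different seeds. For 11 of them the seed is that of 1 or more of the 2482 other miRNA probes, but none of those other probes was detected on more than 2 arrays. The seed of PC-3p-858005_1 is found in ame-miR-3049-5p, api-miR-3049 and tca-miR-3049-5p, that of PC-5p-1231647_1 in rmi-miR-5325, that of PC-3p-480983_1 in tur-miR-7-3p and that of PC-3p-20772_50 in tca-miR-970-5p. Over the whole length no candidate came close to a named miRNA. The fewest edits (substitutions, insertions or deletions) to any other miRNA probe ranged from 5 to 9 with a median of 7, and 0 candidates lay within 3 edits. Shorter stretches were shared. The longest run in common with another miRNA probe was 12 bases, in PC-3p-1822140_1, which was detected on 0 arrays.

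The candidates were shorter than the other probes, with a median length of 20 bases against 22. Lengths of 21 to 23 bases, typical of miRNAs, were found for 20 of 64 candidates (31.2%) and for 1706 of 2482 other probes (68.7%), and lengths under 20 for 25 (39.1%) and 183 (7.37%). A uridine at the first base, favoured by Argonaute proteins in many animals, was present in 24 candidates (37.5%) and in 1220 other probes (49.2%). Adenine came first in 22 candidates (34.4%) and 543 other probes (21.9%). Median GC content was 45.5% in both sets.

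Of the 2016 pairs of candidates, 4 share a run of at least 12 bases on the same strand. They are shown with the shared bases in capitals, because such probes share sequence and may read the same RNA. They are counted separately in what follows.
PC-5p-14110_76: aaGACGUCAGGCUGCAAUCCU
PC-3p-21202_53: GACGUCAGGCUGCAAUCCU
PC-5p-341866_2: ccguGAUUUCAUCAAGAACAUGAu
PC-3p-318099_2: GAUUUCAUCAAGAACAUGA
PC-5p-1418505_1: UAAGGGUGGAUAGGGCUgcu
PC-5p-624611_1: aauuUAAGGGUGGAUAGGGCU
PC-5p-625663_1: uUCUGAAGAAUCUgaucagggu
PC-5p-197429_2: uucaUCUGAAGAAUCUcca

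In the first 2 pairs the shorter probe lies whole within the longer, and yet the names give the 2 probes of a pair different arms. Opposite arms of 1 hairpin pair with each other and so are complementary rather than alike. The next longest shared run among the candidates was 9 bases. Between candidates named 5p and candidates named 3p the longest complementary run was 8 bases, found in 5 of 1015 pairs, and between candidates of the same arm it was 8 as well.

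Of the 64 candidates, 34 (53.1%, against 60.6% of the other probes) were detected on at least 1 array, but few were on every array. The count detected on none, 30 here, moved with the limit. It was 5 with a robust deviation of the empty spots, 11 at 2 standard deviations and 48 at 5. With the median of all empty spots as background it was 40. A probe was called detected when its signal lay more than 3 standard deviations of the array's empty spots above the median of its 20 nearest empty spots. On normoxia 1, 2 and 3 this held for 14, 26 and 8 of the 64 candidates (21.9%, 40.6% and 12.5%). On hypoxia 1, 2 and 3 it held for 13, 23 and 8 (20.3%, 35.9% and 12.5%). The other miRNA probes gave similar shares on the same arrays, 21.4%, 39.3% and 13.5% in normoxia and 17.3%, 35.7% and 16.6% in hypoxia. Detection thus differed more between arrays of 1 group than between the candidates and the rest, and the highest counts came from normoxia 2 and hypoxia 2.

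Those arrays also had the highest readings of dim probes. The median candidate read 52.9 intensity units above background on normoxia 2 and 23.1 on hypoxia 2, against -5.0 to 15.2 on the other 4 arrays. The limit itself ran from 27.8 units on hypoxia 2 to 94.5 on normoxia 3. Of the 34 candidates detected on at least 1 array, 18 were detected on normoxia 2 or hypoxia 2 and on no other array. These are 28.1% of the 64 candidates, and 32.5% of the other miRNA probes were detected in the same way.

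On all 6 arrays 6 candidates were detected (9.38%, against 11.5% of the other probes), and on none 30 (46.9%, against 39.4%). On 5 arrays it was 3 (4.69%, against 1.65%), on 4 arrays 2 (3.12%, against 1.41%) and on 3 arrays 0 (against 2.46%). On 2 arrays it was 10 (15.6%, against 9.71%) and on 1 array 13 (20.3%, against 33.9%). At 3 standard deviations no candidate was detected on all 3 arrays of 1 oxygen level and on 0 of the other. The share of the other probes with that pattern is not given. By these counts a small group was present throughout, with a long tail near the background.

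The 4 highest readings among candidates detected on 1 or 2 arrays came from different probes. PC-3p-1791814_1 read 180 above background on normoxia 1 and 25.4 or less on the other 5 arrays. PC-5p-625663_1 read 158 on hypoxia 2 and 98.6 on normoxia 2, and 10.8 or less elsewhere. In hypoxia PC-5p-75791_10 gave 150, 69.6 and 32.8 on arrays 1 to 3, and in normoxia 0.415 to 33.0, so it was detected on 2 hypoxia arrays and no normoxia array. PC-3p-1500075_1 read 146 on normoxia 2 and 54.7, below the limit, on hypoxia 3. Each probe has 1 spot, so a reading that stands alone has no second spot to set beside it.

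The brightest candidate on average was PC-3p-189091_4. Its signal above background was 1312, 5663 and 2186 in normoxia and 4112, 657 and 4340 in hypoxia, in the order of the replicates, as in what follows. After normalization its mean over the 6 arrays was 11.34 (log2 intensity), at the 96.3rd percentile of all miRNA probes. Brightness also depends on how well each probe hybridises, so it is no measure of one miRNA's abundance against another's. Over the 64 candidates the median of the mean levels was 6.48, and the 30 undetected candidates lay between 6.25 and 6.57.

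Both arms were represented among the detected probes. Of the candidates named 5p, 14 of 29 (48.3%) were detected on at least 1 array and 4 on all 6, and of those named 3p, 20 of 35 (57.1%) and 2. The order of the arms moved with the limit. At 2 standard deviations 26 of 29 and 27 of 35 were detected on at least 1 array. At 5 it was 8 of each, so the 5p share was then the higher one at both limits. Median levels over all members were 6.47 (5p) and 6.48 (3p). Among those bright enough to be tested, the 4 named 5p had a median level of 9.83 and the 5 named 3p one of 8.04. Differences between the groups ran from -1.43 to 0.74 for the 4 (log2, median -0.27, 2 above 0 and 2 below) and from -0.59 to 0.75 for the 5 (median 0.01, 3 above and 2 below), so neither arm lay on 1 side of 0. Among the 5, PC-3p-858005_1, PC-3p-480983_1 and PC-3p-21202_53 were detected on every array only in the group with the higher mean.

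Each name holds a pair of numbers, whose meaning the files do not state. Ordered by the first number, the second rose at 4 of 63 steps, so the second was mostly smaller where the first was larger. All 6 candidates whose second number is 10 or more were detected on at least 1 array, 5 of them on 4 or more. Of the 39 candidates whose second number is 1, 17 (43.6%) were detected on at least 1 array and 4 on 4 or more. The median level was 8.77 in the first set and 6.46 over the 58 candidates with a second number under 10. The brightest candidate, PC-3p-189091_4, was an exception with a second number of 4.

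The comparison of oxygen levels asked whether any candidate differed after 24 h of hypoxia. Of the 64, 9 were seen on each array of 1 group or of both and entered a limma fit over the 339 probes that passed this filter (14.1% of the candidates, 13.3% of the other probes). None passed the adjusted p threshold of 0.05 (limma, adjusted p = 0.870 to 1.00), where 0.00% of all tested probes passed. At an unadjusted p under 0.05 there were 0 of the 9, against 15 of 339 (4.42%) over the array, 1.77% higher and 2.65% lower in hypoxia. The 3 values of each group overlapped in all 9, while they did not overlap in 34 of the 339 probes (10.0%). With 9 candidates these shares are too coarse to set them apart from the other probes.

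The changes were small beside their errors. In hypoxia 5 of the 9 had a higher mean and 4 a lower one, with a median change of 0.01 (log2), against a median of -0.09 over all 339 probes, of which 41.9% were higher. PC-3p-858005_1 and PC-3p-480983_1 entered the fit only through hypoxia arrays and PC-3p-21202_53 only through normoxia arrays, each the group with the higher mean. The filter favours such signs, so the split and the median are a description only. This split moved with the scaling, since 2 of the 9 were above 0 after 75th percentile scaling or none, 4 after cyclic loess and 3 in the authors' value table. Between the group means 1 of the 9, PC-5p-2388_431, differed by 2-fold or more, as did 8.55% of all tested probes, with 3.24% of all tested probes lower in hypoxia by that much. Which candidates lay past 2-fold moved with the setting. With array weights PC-5p-2388_431 was at -0.63, PC-3p-324204_2 at 1.06 and PC-3p-189091_4 at -1.0, and PC-3p-324204_2 was also at 1.01 after cyclic loess and 1.09 in the authors' value table. Standard errors of a change ran from 0.41 to 0.88 (log2) with a median of 0.48, against 0.39 over all tested probes, and the number of arrays limits this precision. A change of 2-fold was thus within the 95% interval of every one of the 9, and a missing call does not show an equal level.

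PC-5p-2388_431, whose source RNA is not annotated in the sources used here, had the lowest change and was brightest on normoxia 1. Its levels were 13.17, 11.44 and 10.70 in normoxia against 10.22, 11.13 and 9.66 in hypoxia. The group means were 11.77 ± 1.26 (log2, SD, n = 3) and 10.34 ± 0.74, a change of -1.43 (95% interval -3.18 to 0.31, limma, adjusted p = 0.870). The hypoxia 2 array read above normoxia 3. Without normoxia 1 the change was -0.74.

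PC-5p-16770_62 had a like profile, with normoxia 1 again far above the rest. It read 12.29, 9.83 and 9.19 in normoxia and 9.26, 10.82 and 9.52 in hypoxia. The mean change was -0.57 (-2.73 to 1.59, limma, adjusted p = 0.949), and without normoxia 1 it was 0.35, so its sign rested on that array. The spans of these probes over the 6 arrays, 3.51 and 3.10 (log2), lay at the 94.1st and 90.9th percentile of the tested probes.

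PC-3p-189091_4 read 10.96, 12.15 and 11.18 in normoxia and 11.81, 10.05 and 11.86 in hypoxia. Its change of -0.19 (-1.66 to 1.27, limma, adjusted p = 0.949) came with a low reading on hypoxia 2, and was 0.40 without that array, 0.17 without normoxia 2 and -1.0 with array weights. No order between the groups could be read from it.

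PC-3p-324204_2 read 8.05, 8.34 and 8.09 in normoxia and 9.52, 9.25 and 7.97 in hypoxia. Its change of 0.75 (-0.33 to 1.83, limma, adjusted p = 0.870) was made by hypoxia 1 and 2, while hypoxia 3 lay below every normoxia array. It was 0.45 without hypoxia 1 and 1.22 without hypoxia 3. On hypoxia 1 and 2 the added calibration probes named 3M also read 10.1% and 7.34% of those named 3P, against 1.46% to 2.89% in normoxia and 0.821% on hypoxia 3. Those named PUC2MM read 54.8% and 32.9% of those named PUC2PM on hypoxia 1 and 2, against 13.3% to 23.9% on the other arrays. The files do not say what these names stand for, and the part of these differences in the result was not tested.

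The 3 candidates rich in A and G had group means within 0.06 (log2) of each other and their highest or second highest reading on hypoxia 3. PC-5p-1231647_1 read 8.37, 8.61 and 7.97 in normoxia and 7.84, 7.88 and 9.36 in hypoxia (change 0.04). PC-3p-858005_1 read 7.49, 8.17 and 7.75 and then 7.27, 7.53 and 8.66 (change 0.01), and PC-3p-480983_1 read 7.40, 8.60 and 7.49 and then 7.94, 7.17 and 8.56 (change 0.06). Without hypoxia 3 the changes were -0.46, -0.41 and -0.27, and all 3 were also below 0 after 75th percentile scaling or without scaling, so no direction could be given. PC-3p-858005_1 and PC-3p-480983_1 were each below the detection limit on normoxia 3. Both entered the fit only through their hypoxia arrays, where their means were higher.

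The nested probes PC-5p-14110_76 and PC-3p-21202_53 share 19 bases, and the longer adds 2 at its 5′ end, which shifts the seed. They sit in adjacent spots, and their group differences had opposite signs. Above background the longer read 232, 580 and 625 in normoxia and 2072, 682 and 224 in hypoxia. The shorter read 177, 328 and 160 and then 482, 133 and 47.7, the last of these below the detection limit. Normalized, the difference of PC-5p-14110_76 was 0.74 (-0.36 to 1.83) and that of PC-3p-21202_53 -0.59 (-1.59 to 0.42), with an adjusted p of 0.870 for each (limma). Leaving out hypoxia 3 moved the first to 1.16 and the second to -0.17, and leaving out hypoxia 1 moved them to 0.42 and -0.90.

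The difference within each array, longer minus shorter, was 0.40, 0.56 and 1.44 (log2) in normoxia and 2.12 and 2.15 on hypoxia 1 and 2. On hypoxia 3 it came out at 2.10, but the shorter probe was not above the detection limit there, so this value was not measured on both sides. The gap between normoxia 3 and hypoxia 1 and 2 moved with the setting. With signal minus local background the values were 1.97 against 2.10 and 2.36, and without scaling 1.55 against 1.96 and 1.91. In the authors' value table they were 1.53 against 2.31 and 2.44. PC-3p-21202_53 entered the fit only through its normoxia arrays, where its mean was higher. With the main processing and without hypoxia 3, the mean difference was 1.33 larger in hypoxia, with 2 arrays in that group and no test. On those 2 arrays the calibration probes named 3M also read high, at 10.1% and 7.34% of 3P. No other array exceeded 2.89%. The probes named PUC2MM were also highest on hypoxia 1 and 2, at 54.8% and 32.9% of PUC2PM, and at most 23.9% elsewhere. The part of these differences in the gap was not tested. The pair was compared after its values were seen, and an unequal change shows nothing about which of the probes changed.

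The other overlapping pairs gave no like pattern. PC-5p-341866_2 was detected on normoxia 3 only, at 113, where PC-3p-318099_2, contained in it, read -6.8. That shorter probe was detected on normoxia 2 only, at 104, where the longer read 10.2. PC-5p-1418505_1 was detected on normoxia 1 and hypoxia 1, at 51.6 and 107, and PC-5p-624611_1, with 17 bases in common, on 0 arrays. In none of the 4 pairs were both probes detected on the same set of arrays.

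Of the candidates detected on at least 3 arrays but not tested, both were detected on 4. PC-5p-1849895_1 read 89.0, 176 and 30.3 above background in normoxia and 149, 729 and 20.8 in hypoxia, so hypoxia 2 stood far above the other 5 arrays. PC-3p-20772_50, whose target is agcucagcgaggacagaaacca, read 111, 196 and 37.6 in normoxia and 86.5, 63.7 and 8.16 in hypoxia. Both of these probes fell below the limit on normoxia 3 and hypoxia 3.

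Profiles over the 6 arrays were set beside those of all other tested probes by Pearson's r, and the closest 2 are given for each candidate as a description. With only 6 arrays and many probes, high values arise readily. PC-3p-21202_53 lay closest to ame-miR-316 (r = 0.997) and aae-miR-100_L+2 (0.993), and PC-5p-2388_431 to bmo-mir-6497-p5_1ss2TA (0.984) and ame-miR-3751 (0.914). The latter was also closest to PC-5p-16770_62 (0.988), followed by bmo-miR-2779_L-2_1ss9CT (0.974). PC-5p-14110_76 lay closest to dpe-miR-100 (0.954) and dan-miR-100_R-1_1ss3CG (0.935), and PC-3p-324204_2 to that same miR-100 variant (0.982) and dme-miR-79-3p (0.980). For PC-3p-189091_4 they were ame-miR-3792 (0.939) and ame-miR-2_R+2_1ss23CT (0.923), and for PC-3p-480983_1 ame-miR-3739 (0.944) and ame-miR-3717 (0.920). PC-3p-858005_1 lay closest to tur-miR-305-5p (0.955) and cqu-miR-305-5p (0.954), and PC-5p-1231647_1 to ngi-miR-34 (0.957) and bmo-mir-306a-p5_1ss11GT (0.955). All 18 matches were 9 or more edits away in sequence.

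Muscle tissue in the pool was visible through miR-1, a muscle miRNA in many animals, of which 3 of 9 probes were detected on all 6 arrays, and miR-133, with 1 of 6. The summed miR-1 signal ran from 7924 to 24211 in normoxia and from 12242 to 33118 in hypoxia. Of the nerve list, 0 of 8 miR-124 probes, 2 of 8 miR-7 probes and 12 of 39 miR-9 probes were detected on all 6 arrays, and the summed miR-9 signal ran from 16011 to 34334 in normoxia and from 18754 to 39840 in hypoxia. Of miR-8, a miRNA of fat body and epithelium in insects, 4 of 6 were. No marker miRNA of prawn gill, hepatopancreas or hemocytes was used.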

How the data were processed

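Per the labels, total RNA was labelled with Cy3 and hybridised to 1-colour arrays by the LC Sciences protocol, 1 array for each sample. The deposited scanner tables give the median intensity of each spot, linear and without background subtraction, and the target sequence. A further deposited table gives the authors' own processed intensity for each probe, with the scaling method not given in the labels or files used here; it served as an alternative, with a floor of 20. Columns of other samples numbered 0.

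Groups came from the sample titles. Background was corrected with normexp (limma 3.58.1, R 4.3.3, offset 50) against the 20 nearest empty spots, a step that pulls changes of dim probes toward 0. Without control spots, the arrays were brought to 1 distribution (quantile normalization) on the log2 scale. Probes detected on all 3 arrays of a group were tested with lmFit and eBayes, Benjamini-Hochberg adjusted over all 339. The fit was tested on simulated data. Edits were counted with edlib 1.3.9.post1.

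Named candidates were all those tested, those detected on at least 3 arrays, the 4 highest readings among those on 1 or 2 arrays, and seed or overlap partners; overlapping pairs and candidates rich in A and G were picked after their values were seen. The members and lists were chosen with earlier results of these data known. Alternatives changed the background step, scaling, filter, detection limit and spread model, weighted arrays, blocked on replicate number, or dropped 1 array.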

Additional observations from a re-analysis of the deposited data

Results flagged for a closer look

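Outside the miRNA comparison, the calibration probes named 3M stood out on 2 arrays. As a share of the 3P probes they reached 10.1% on hypoxia 1 and 7.34% on hypoxia 2, while no normoxia array exceeded 2.89%. The calibration probes named PUC2MM were also highest on these arrays, at 54.8% and 32.9% of those named PUC2PM. They read 16.1%, 23.9% and 21.4% on normoxia 1 to 3 and 13.3% on hypoxia 3. No group has more than 3 arrays, so no candidate's arrays were tested for an outlying sample.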

How the results depend on the processing

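No candidate passed the adjusted threshold in any of the 19 other limma fits. At an unadjusted p under 0.05 the count of candidates was 1 after cyclic loess, without scaling and in the authors' value table, 2 with array weights or with all 64 tested, and from 0 to 2 when 1 array was dropped (1 lacking normoxia 3, 2 lacking hypoxia 3). Except for the fit with all 64, shares over all tested probes are not given at these settings. Whether such counts are more than the array as a whole gave cannot be read from them. The number of tested candidates above 0, 5 of 9, was 2 with 75th percentile or no scaling and 3 with array weights, the authors' table, detection on all 6 arrays or a limit of 5 standard deviations (fewer probes tested), and from 2 to 6 when 1 array was dropped. The 4 changes of PC-5p-2388_431, PC-5p-14110_76, PC-3p-21202_53 and PC-3p-324204_2 kept their sign in every fit that gave them. Signs turned for PC-3p-858005_1 at offset 16 (-0.0035), 75th percentile (-0.21), loess (-0.15), no scaling (-0.27), weights (-0.38) and the authors' table (-0.20), for PC-5p-1231647_1 at 75th percentile (-0.055), no scaling (-0.11) and weights (-0.39), for PC-3p-480983_1 at 75th percentile (-0.030), no scaling (-0.085), weights (-0.54) and the authors' table (-0.25), and for PC-5p-16770_62 with weights (0.35); the cause was not tested. With single arrays left out these ran from -0.41 to 0.29, -0.46 to 0.30, -0.27 to 0.45 and -1.20 to 0.35, and PC-3p-189091_4 from -0.51 to 0.40. Same-numbered arrays did not deviate together (r = -0.25, -0.27 and -0.06 over 339 probes), and with the replicate block 0 candidates passed, 5 lay above 0 and changes were equal to those without it. Counting overlapping probes once and the other settings for the nested pair were chosen after seeing the data, and with the former 5 lay above 0.

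Counts of detected candidates followed the limit. At 2 standard deviations hypoxia 2 had 46 and 11 candidates were detected on no array. At that limit 26 of 29 named 5p and 27 of 35 named 3p were detected on at least 1. At 5 they were 13 on normoxia 2, 5 on normoxia 3 and 12 on hypoxia 2, 48 were on none, and 8 of each arm on at least 1. With a robust deviation the counts were 31 and 44 on normoxia 1 and 2, 24, 53 and 16 on hypoxia 1 to 3, 10 on all 6 and 5 on none. With the median of all empty spots they were 17 on normoxia 2 and 15 on hypoxia 2, and 40 were on none. Shares of the other miRNA probes are not given at these settings. The candidates and the rest were thus set side by side only in the main setting, at 3 standard deviations.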

Other observations

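Detection was frequent among probes with the most A and G, a pattern noticed after the values were seen and given without a test. Of the 3 candidates with at least 80% A and G, all 3 were bright enough to be tested, as were 13 of the 23 other miRNA probes at that content (56.5%), against 13.3% of all other probes. The 13 include ame-miR-3792 and ame-miR-3717, each among the 2 profiles closest to a tested candidate.

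When all 2546 probes were tested without the filter, 2 of the 64 candidates (3.12%) had an unadjusted p under 0.05, against 2.91% of all probes. They were PC-5p-75791_10 and PC-3p-432314_1, detected on 2 arrays and on 1, and 0 candidates passed after adjustment (limma, smallest adjusted p = 0.898).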
